A study of Mus musculus with 4 samples.

Results

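Aminoacyl-tRNA synthetases are the enzymes that load each tRNA with its amino acid, and their transcripts were followed here through an immunoprecipitation of the RNA-binding protein Cpeb4. Members were the probe sets whose gene symbol is 1 capital letter followed by ars, ars1 or ars2, together with Eprs, Farsa and Farsb. The rule found 35 of the 25206 probe sets on the array, and it used the symbol alone, so no measured value took part in the choice. RNA came from erythroblasts, the immature red blood cells, of E14.5 mouse fetal liver, which had been collected on magnetic beads through the erythroid surface antigen Ter119. The 3 groups were RNA precipitated with an antibody against Cpeb4 (IP, 2 biological replicates), RNA precipitated with rabbit IgG (1 array) and total input RNA with no antibody (1 array). No strain, genotype or treatment other than the precipitation was given in the labels, nor whether the control arrays came from the same cells as either IP replicate. The design asks which mRNAs came down with Cpeb4.

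A synthetase joins an amino acid to its tRNA at the cost of ATP, and the charged tRNA is then carried to the ribosome by the elongation factor eEF1A. Animal cells keep separate nuclear-encoded enzymes for the cytosol and for mitochondria, except for lysine and glycine, where a single gene (Kars, Gars) serves both, and for glutamine, whose mitochondrial tRNA is charged with glutamate and then converted by an amidotransferase. Several cytosolic enzymes are held together with scaffold proteins in the multisynthetase complex. By the fold of their catalytic domains the enzymes fall into class I and class II. Erythroblasts make large amounts of globin, which draws on charged tRNA, and the heme-regulated kinase Eif2ak1 couples translation in these cells to heme and to the amino acid stress response, in which Atf4 raises synthetase genes. Cpeb4 belongs to the family of proteins that bind cytoplasmic polyadenylation elements in mRNA.

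Values are deposited log2 expression values, and differences are IP minus control or IgG minus input on that scale. "Rose" and "fell" are used of a gene at an adjusted p below 0.05 in limma, over 13911 tested genes. All 35 synthetases passed the filter on low values. Because each control was 1 array, the spread came from the IP replicates alone and the control side had no replicate check. A second count, by size, took genes at least 2-fold from a control in both IP replicates. The IgG array stood apart: the SD over its probe sets was 1.74, against 2.13 on input and 2.05 and 2.07 on the IP arrays, and the arrays' medians were 4.49, 4.13, 4.15 and 4.17 in that order. Quantile normalization of the 4 arrays again, an alternative scaling, moved the median IgG difference from input over all tested genes from -0.15 to -0.03, a change that bears on every comparison with IgG. With it, the split of all tested genes between rises and falls went from 5028 and 2944 to 3811 and 3872 against IgG, and from 1416 and 2213 to 1379 and 1452 against input.

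As deposited, the synthetase transcripts lay mostly between the controls, higher in the Cpeb4 IP than in the IgG precipitate and lower than in input. In 19 of the 35 both IP replicates were above IgG and below input, a pattern held by 22.2% of all tested genes. These 19 were Aars, Cars, Eprs, Farsb, Hars, Hars2, Iars, Iars2, Kars, Lars, Lars2, Mars1, Rars, Rars2, Sars, Tars, Vars, Yars and Yars2. After quantile normalization again, 14 of the 35 held the pattern, as did 2740 of all tested genes in place of 3085. Both IP replicates stood above both controls in 4, namely Gars, Nars, Qars and Vars2 (20.5% of tested genes), and below both in 5, namely Cars2, Fars2, Nars2, Sars2 and Wars (11.9% of tested genes). No synthetase was at least 2-fold above both controls (2.49% of tested genes) or at least 2-fold below both (0.503%). The median member value was 8.03 on input, 6.71 on IgG and 7.75 and 7.63 in the IP replicates. In RNA from many cells, fewer cells of a type and less RNA per cell cannot be told apart.

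**Figure D1:**
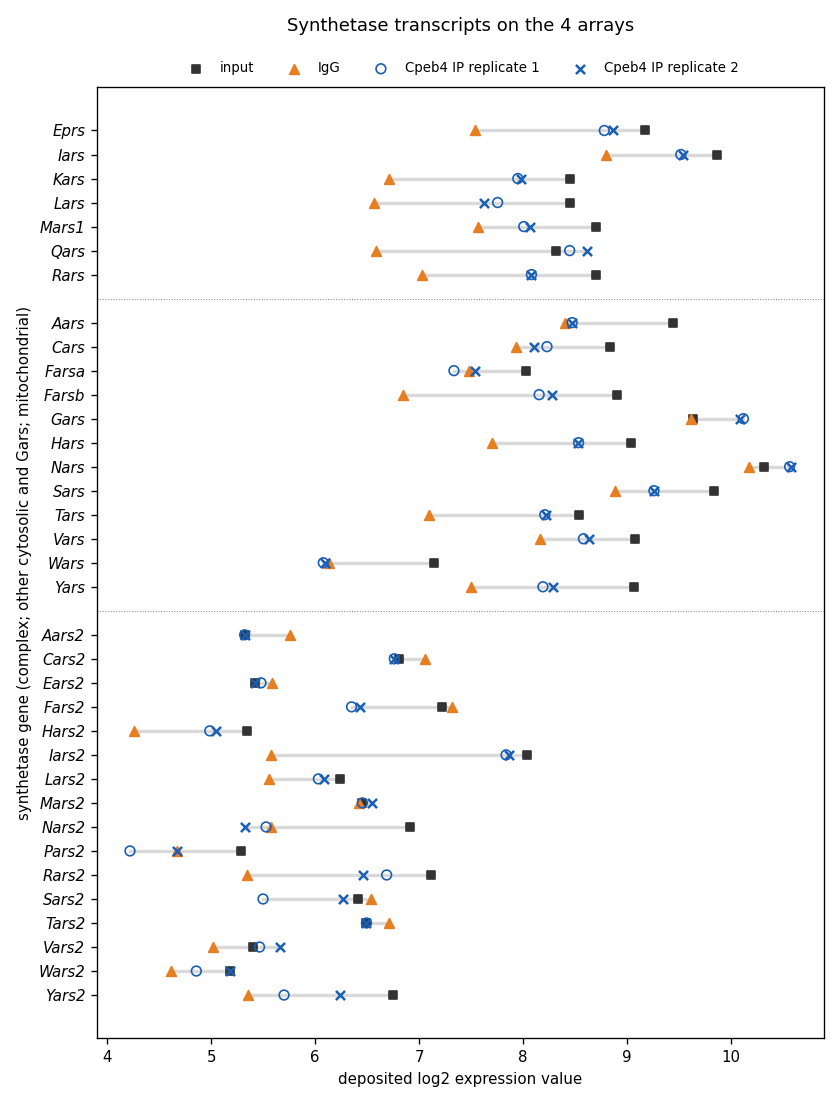
Deposited log2 expression values of the 35 synthetase transcripts on the input array, the IgG array and both Cpeb4 IP arrays, 1 line per gene, with the multisynthetase complex at the top, the other cytosolic enzymes and Gars in the middle and the mitochondrial enzymes at the bottom. Grey bars join the lowest and highest array; in most complex enzymes the IP values lie between IgG on the left and input on the right, while Gars and Nars have both IP values on the right of both controls.

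Against IgG, 9 synthetases were at least 2-fold higher in both IP replicates, where the background was 18.6% of tested genes, and no synthetase was at least 2-fold lower, where it was 6.24%. The 9 were Eprs, Farsb, Iars2, Kars, Lars, Qars, Rars, Rars2 and Tars. At any size, 25 were above IgG in both replicates (50.0% of tested genes) and 8 below (37.3%). By limma 19 rose, against 36.1% of all tested genes, and Aars2 and Fars2 fell, against 21.2%. Values normalized again gave 10 rises and 10 falls among the 35 synthetases, beside 3811 rises and 3872 falls over all tested genes. In neither set did rises then outnumber falls. The median difference over the 35 was 0.47, against 0.08 over all tested genes, and it was 0.12 and 0.03 after the second normalization.

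Transcript level moved with this difference. Among tested genes with a mean log2 value of at least 8 the median difference from IgG was 0.68 (1829 genes), and the 13 synthetases at that level had a median of 0.49. Between 6 and 8 the medians were 0.69 over 4286 genes and 0.35 over 14 synthetases, and below 6 they were -0.16 over 7796 genes and 0.14 over 8 synthetases. So within both upper level classes the synthetase median was below that of all genes of the class, and only in the lowest class was it above. The part of level in the counts against IgG was not tested.

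The enzymes of the multisynthetase complex stood highest above IgG. All 7 that were measured rose (36.1% of all tested genes), and 5 of them passed the 2-fold rule (18.6%). The mean log2 values of the 7 ran from 7.60 (Lars) to 9.43 (Iars), within the 2 upper level classes. In those classes all tested genes had median differences of 0.69 and 0.68 from IgG. The median difference of the 7 was 1.13 and became 0.44 after the second normalization. Under it 3 rose (Eprs, Kars and Qars) and Mars1 turned to -0.26. Qars, the glutaminyl-tRNA synthetase, read 8.32 on input, 6.59 on IgG and 8.45 and 8.61 in the IP replicates. Both IP arrays were thus above both controls, far above IgG and slightly above input. The IP exceeded IgG 3.84-fold (difference 1.94, SE 0.14, limma adjusted p = 0.00185). Against input the gap was 0.21 and did not pass (adjusted p = 0.373).

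Eprs, whose product carries both the glutamyl and the prolyl enzyme, read 9.17 on input, 7.54 on IgG and 8.78 and 8.86 in the IP. The IP arrays lay nearer to input than to IgG, at 2.43-fold above IgG (difference 1.28, SE 0.12, limma adjusted p = 0.00281). Kars, the lysyl enzyme of both compartments, read 8.45 on input, 6.71 on IgG and 7.95 and 7.98 in the IP, 2.38-fold above IgG (adjusted p = 0.00277). Lars, the leucyl enzyme, which is also known as a leucine sensor upstream of mTORC1, read 8.45 on input, 6.56 on IgG and 7.75 and 7.63 in the IP. It rose 2.18-fold against IgG (adjusted p = 0.00415) and fell against input (difference -0.76, SE 0.13, adjusted p = 0.0244), so as deposited it lay between the controls and differed from each by limma. After the second normalization it passed against neither (0.44 and -0.60).

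Rars, the arginyl enzyme, read 8.70 on input, 7.03 on IgG and 8.08 in both IP replicates, 2.07-fold above IgG (limma adjusted p = 0.00389) and lower than input (adjusted p = 0.0294). Its IP values were tied, as they were in Aars, Aars2, Cars2, Sars and Tars2, so that the error of these 6 rests on the spread of other genes. Iars, the isoleucyl enzyme, read 9.86 on input, 8.80 on IgG and 9.51 and 9.53 in the IP. The IP arrays were 1.66-fold above IgG (adjusted p = 0.00921), and the lower reading than input did not pass (difference -0.34, adjusted p = 0.116). Mars1, the methionyl enzyme, read 8.70 on input, 7.57 on IgG and 8.01 and 8.07 in the IP. It rose against IgG (difference 0.47, adjusted p = 0.0323), a direction that turned to -0.26 with the second normalization, and fell against input (difference -0.66, adjusted p = 0.0272). Mars1, Lars and Rars were the members of the complex that fell against input, beside 15.9% of all tested genes. None of these 3 calls held after the second normalization (-0.51, -0.60 and -0.48). The median of the 7 against input was -0.49.

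The 12 enzymes that act in the cytosol outside the complex, with Gars, had a median difference of 0.42 from IgG, which turned to -0.06 after the second normalization, and of -0.58 from input. Farsb and Tars were the 2 that stood at least 2-fold above IgG, 16.7% of the 12 beside 18.6% of all tested genes. Farsb, the beta subunit of phenylalanyl-tRNA synthetase, read 8.90 on input, 6.84 on IgG and 8.15 and 8.28 in the IP, 2.59-fold above IgG (difference 1.37, SE 0.13, limma adjusted p = 0.00275) and lower than input (adjusted p = 0.0294). Its partner Farsa, the alpha subunit of the same enzyme, read 8.03 on input, 7.48 on IgG and 7.33 and 7.54 in the IP. For Farsa the IP replicates lay on either side of IgG (difference -0.04, adjusted p = 0.847), so the transcripts of the 2 subunits of 1 enzyme stood 1.37 and -0.04 from IgG. The second normalization moved these to 0.65 and -0.77, and Farsa was then called as a fall. Whether the subunits differ from each other was not tested.

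Tars, the threonyl enzyme, read 8.53 on input, 7.09 on IgG and 8.21 and 8.22 in the IP, 2.17-fold above IgG (limma adjusted p = 0.0034). Hars (histidyl), Yars (tyrosyl) and Vars (valyl) also rose against IgG, by 0.83, 0.74 and 0.44, and none of the 3 passed after the second normalization, which gave 0.12, 0.01 and -0.22. Cars (cysteinyl) and Sars (seryl) had differences of 0.23 and 0.37 from IgG that did not pass (limma adjusted p = 0.206 and 0.0565). The second normalization put them at -0.46 and -0.14, and Cars was then called as a fall.

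Gars and Nars had the highest IP differences from input, ahead of Qars. Gars, the glycyl enzyme of both compartments, read 9.63 on input, 9.61 on IgG and 10.12 and 10.08 in the IP. Here the controls were level with each other and both IP replicates were above them, by 0.49 against IgG (1.40-fold, SE 0.12, limma adjusted p = 0.0275) and by 0.47 against input (adjusted p = 0.0566, which missed the threshold). Nars, the asparaginyl enzyme, read 10.32 on input, 10.17 on IgG and 10.56 and 10.57 in the IP. It rose against IgG (difference 0.40, adjusted p = 0.046) and did not pass against input (difference 0.25, adjusted p = 0.219). After the second normalization neither passed against IgG (0.12 and 0.17), while Gars passed against input (0.62).

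Aars and Wars had the lowest IP differences from input outside the mitochondrial enzymes, and both fell. Aars, the alanyl enzyme, read 9.44 on input, 8.40 on IgG and 8.47 in both IP replicates. The IP values were at the level of IgG (difference 0.07, -0.59 after the second normalization) and input was 1.96-fold higher (difference -0.97, SE 0.12, limma adjusted p = 0.0132). Wars, the tryptophanyl enzyme, read 7.14 on input, 6.14 on IgG and 6.08 and 6.10 in the IP, with input 2.08-fold higher (difference -1.05, SE 0.12, adjusted p = 0.0118). In both genes, as deposited, the 3 precipitates lay within 0.1 log2 units of each other and input stood alone. After the second normalization both fell against IgG as well, with Wars at -0.57 in place of -0.05.

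**Figure D2:**
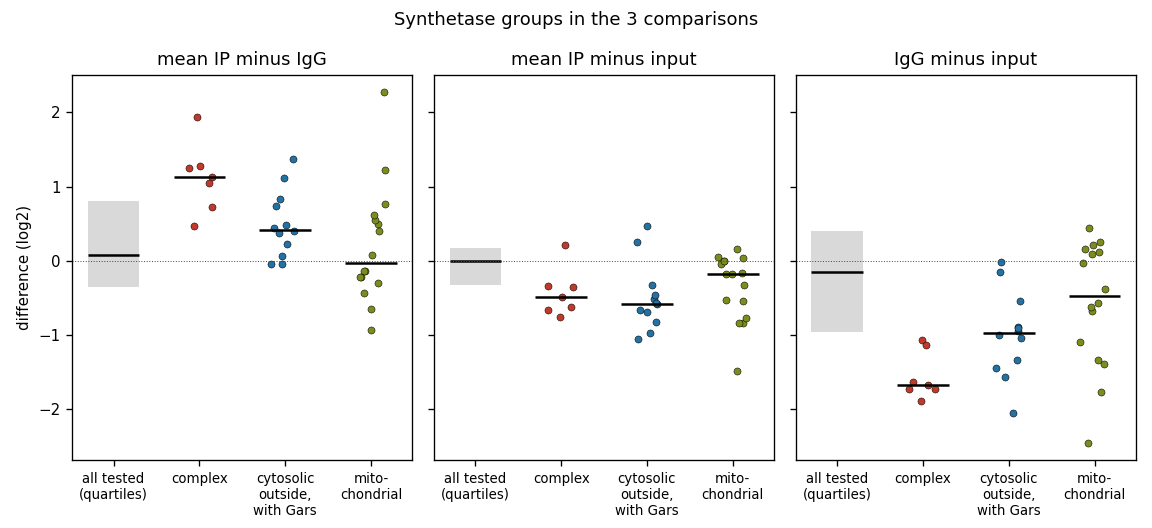
Differences on the log2 scale for the synthetase groups: mean IP minus IgG, mean IP minus input and IgG minus input, 1 point per gene, with a line at each group's median. Grey boxes span the quartiles of all tested genes, -0.36 to 0.81 against IgG and -0.32 to 0.18 against input; the complex has medians of 1.13, -0.49 and -1.67 in the 3 panels.

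Against input, no synthetase was at least 2-fold higher in both IP replicates (4.04% of tested genes), and 2, Nars2 and Wars, were at least 2-fold lower (5.18%). At any size, 4 were above input (33.1% of tested genes) and 26 below (38.7%). By limma 12 synthetases fell, against 15.9% of tested genes: Aars, Cars, Fars2, Farsb, Hars, Lars, Mars1, Nars2, Rars, Sars, Wars and Yars. None rose, against 10.2% of tested genes; at an unadjusted p under 0.05 there was 1 (Gars), and 2 (Gars and Nars) rose with plain eBayes, with a common spread and with a trended robust prior. The median over the 35 was -0.49, with -0.01 over all tested genes, and -0.32 after the second normalization, which left 5 falls and added 1 rise. In the upper level classes the synthetase medians against input were -0.51 and -0.53, and those of all genes -0.10 and -0.11.

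The IgG array was itself well below input for this family. It was at least 2-fold below input in 18 of the 35 (23.9% of tested genes) and at least 2-fold above in none (7.93%), and below at any size in 29 (54.7%). All 7 measured enzymes of the complex were among the 18, with a median of -1.67 against -0.15 over all tested genes. Genes of like level were also below input on IgG, though by less. At a mean log2 value of at least 8 the median gap was -0.82 over 1829 genes and -1.07 over 13 synthetases. Between 6 and 8 it was -0.86 over 4286 genes and -1.20 over 14 synthetases. Below 6 it was 0.21 over 7796 genes and -0.59 over 8 synthetases. The part of level in these gaps was not tested. The largest gaps were in Iars2 (-2.45), Farsb (-2.06) and Lars (-1.89). With the second normalization 6 of the 35 were at least 2-fold below input, beside 1936 of all tested genes in place of 3329. These are differences between single arrays, with no test, and they share the IgG array with the IP differences from IgG, so the 2 sets of values are not independent.

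The 16 mitochondrial enzymes spread the widest around IgG, from 2.27 for Iars2 to -0.93 for Fars2, with a median of -0.03. Of these, 5 rose (Hars2, Iars2, Lars2, Rars2 and Vars2) and 2 fell (Aars2 and Fars2), beside 36.1% and 21.2% of all tested genes. After the second normalization Lars2 lost its call (0.22) and Wars2 gained one (0.64), and the falls were 6, with Cars2, Mars2, Sars2 and Tars2 added. Iars2, the mitochondrial isoleucyl enzyme, read 8.03 on input, 5.58 on IgG and 7.84 and 7.87 in the IP. Both IP arrays were close to input and 4.83-fold above IgG (difference 2.27, SE 0.12, limma adjusted p = 0.00159), the largest difference from IgG of any member, and 1.89 after the second normalization. Rars2, the mitochondrial arginyl enzyme, read 7.11 on input, 5.34 on IgG and 6.69 and 6.46 in the IP, 2.34-fold above IgG (adjusted p = 0.00492).

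Hars2, Lars2 and Vars2, the mitochondrial histidyl, leucyl and valyl enzymes, rose against IgG by 0.76, 0.50 and 0.54. Hars2 was the only member that read below an array's median, at 4.26 on IgG. Yars2 and Wars2, the tyrosyl and tryptophanyl enzymes, differed from IgG by 0.62 and 0.41 with wide IP spreads (SD 0.38 and 0.23, n = 2) and did not pass (limma adjusted p = 0.112 and 0.13).

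Fars2, the mitochondrial phenylalanyl enzyme, read 7.22 on input, 7.32 on IgG and 6.35 and 6.43 in the IP. Both IP arrays were below both controls, by 0.93 from IgG (IgG 1.90-fold higher, SE 0.12, limma adjusted p = 0.00562) and by 0.83 from input (input 1.78-fold higher, adjusted p = 0.0178). It was the only synthetase that fell against both. Aars2, the mitochondrial alanyl enzyme, read 5.32 on input and both IP replicates and 5.76 on IgG (difference -0.44, adjusted p = 0.0361). Here the IgG array stood alone and the other 3 arrays were tied.

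Sars2, the mitochondrial seryl enzyme, read 6.41 on input, 6.53 on IgG and 5.50 and 6.27 in the IP. Both replicates were below both controls, but they differed by more between themselves (IP SD 0.54, n = 2) than replicate 2 differed from either control, and neither comparison passed (limma adjusted p = 0.189 and 0.386). Nars2, the mitochondrial asparaginyl enzyme, read 6.91 on input, 5.57 on IgG and 5.53 and 5.33 in the IP. As in Wars, the precipitates lay together and input stood alone, 2.80-fold above the IP (difference -1.48, SE 0.14, adjusted p = 0.0106).

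The other mitochondrial enzymes passed neither comparison as deposited. Pars2 (prolyl) was 0.84 below input with an IP SD of 0.32 (n = 2, limma adjusted p = 0.0663). Cars2 (cysteinyl), Ears2 (glutamyl), Mars2 (methionyl) and Tars2 (threonyl) differed from input by between -0.04 and 0.05. Against IgG, Cars2, Ears2 and Tars2 stood at -0.30, -0.13 and -0.22, and Mars2 at 0.08. The second normalization gave -0.99 for Cars2, -0.87 for Tars2 and -0.54 for Mars2, all called as falls, and Cars2 and Tars2 also passed with plain eBayes.

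**Figure D3:**
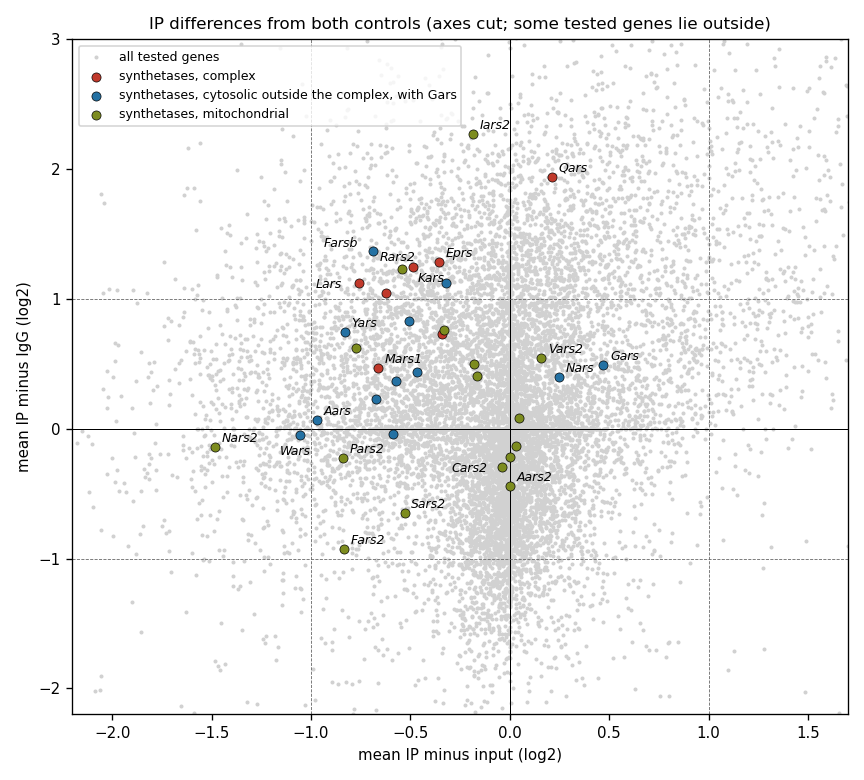
Mean IP minus input (horizontal axis) and mean IP minus IgG (vertical axis), both log2, for all tested genes in grey and the 35 synthetases in colour by group; dashed lines mark 2-fold. The axes leave out some tested genes at the extremes. Most synthetases lie in the upper left, between the controls. Qars, Gars, Nars, Vars2 and, close to the origin, Mars2 lie in the upper right. Fars2 and Sars2 are among those in the lower left.

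For 13 amino acids, 1 gene for a cytosolic enzyme of that amino acid alone and 1 for a mitochondrial enzyme were measured. Glutamate and proline, which share Eprs in the cytosol, and phenylalanine, whose cytosolic enzyme has 2 subunit genes, were left out of these pairs. The cytosolic transcript had the higher IP difference from IgG in 9 of them, and the mitochondrial one in the other 4 (isoleucine, arginine, valine and tryptophan). After the second normalization the order against IgG also turned in histidine (0.12 for Hars, 1.03 for Hars2) and tyrosine (0.01 for Yars, 0.46 for Yars2). The pairs were not matched for transcript level. Against input the cytosolic transcript was the lower in 12 of the 13 pairs. The exception among them was asparagine, where Nars stood at 0.25 and Nars2 at -1.48. In 10 of the 13 the cytosolic transcript was also the one further below input on the IgG array. Among the 13 pairs the widest gap against IgG was in isoleucine, 0.73 for Iars and 2.27 for Iars2, and the next in threonine, 1.12 for Tars and -0.22 for Tars2. Of the genes left out, Farsa and Farsb stood above Fars2 against both controls, by 0.88 and 2.30 against IgG and by 0.24 and 0.15 against input. Eprs stood above Ears2 by 1.42 against IgG, and its difference from Ears2 against input was -0.39. Against IgG the gap of Farsb was thus wider than in any of the 13 pairs, and that of Eprs wider than in threonine. No test of these differences between genes was made.

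**Figure D4:**
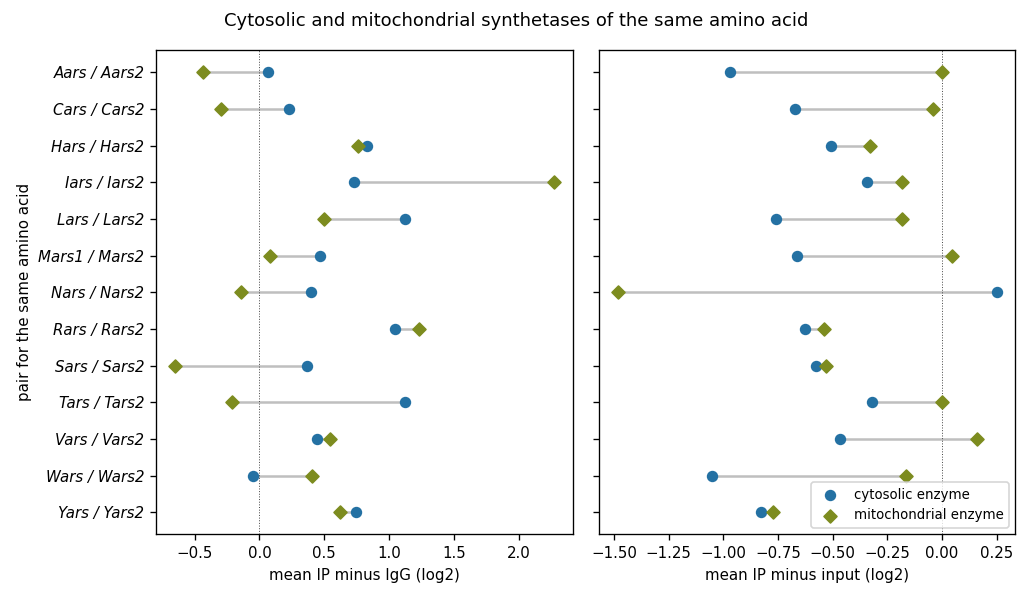
Cytosolic (circles) and mitochondrial (diamonds) enzymes of the same amino acid, 13 pairs, by mean IP minus IgG on the left and mean IP minus input on the right, both log2. On the right the circle lies to the left of the diamond in 12 of 13 pairs.

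Of 18 class I enzymes, 11 rose against IgG (36.1% of all tested genes) and 6 fell against input (15.9%), with medians of 0.52 (0.20 after the second normalization) and -0.40. Of 16 class II enzymes, 7 rose and 2 fell against IgG and 6 fell against input, with medians of 0.22 (-0.04 after the second normalization) and -0.52. Eprs, whose 2 catalytic parts belong to different classes, was counted in neither. In 8 members the gene span overlaps another protein-coding gene in the RefSeq annotation: Aars with Ddx19b, Farsb with Sgpp2, Hars and Hars2 with each other, Iars2 with Rab3gap2, Mars1 with Ddit3, Rars2 with Orc3 and Wars with Wdr25. Whether the probes of these sets also report the neighbour was not tested.

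The 3 scaffold proteins of the multisynthetase complex had a median difference of 1.02 from IgG, beside 1.13 for its enzymes. Aimp1 read 6.60 on input and both IP replicates and 5.58 on IgG, and rose by 1.02 against IgG. Eef1e1 (also called AIMP3) rose by 1.60 against IgG and stood 0.18 from input. Aimp2 read 7.94 on input, 6.78 on IgG and 6.98 and 6.54 in the IP, level with IgG (-0.02) and lower than input (difference -1.18, limma adjusted p = 0.0303). None of the 3 had both IP values between the controls: Eef1e1 was above both, Aimp1 was tied with input, and the replicates of Aimp2 lay on either side of IgG.

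The eEF1 subunits deliver charged tRNA to the ribosome and recharge the factor with GTP. Against IgG, 2 of 5 rose, near the 36.1% of all tested genes (Eef1a1 by 3.08 and Eef1b2 by 1.32) and Eef1a2, the form of muscle and nerve, fell by 0.69, with Eef1g at -0.20; the median was 0.16 and turned to -0.49 after the second normalization. Eef1a1 read 6.58 on input, 3.78 on IgG and 6.81 and 6.92 in the IP, its IgG reading being below that array's median of 4.49. Eef1b2, the nucleotide exchange subunit, read 10.49 on input, 10.13 on IgG and 11.47 and 11.42 in the IP. It was above both controls in both replicates and rose against input as well (difference 0.96, limma adjusted p = 0.0136). Eef1d fell against input by 0.73, and Eef1g and Eef1a1 stood at -0.41 and 0.28.

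Of the 15 symbols listed for other charging, editing and tRNA-dependent amino acid steps, 12 had a probe set and were tested. Against IgG 6 of these rose, beside 36.1% of all tested genes, and the list's median was 0.36 (0.07 after the second normalization). They were Tarsl2 by 2.66, Gatc by 1.86, Sepsecs by 1.498, Trnt1 by 1.18, Dtd2 by 0.87 and Aarsd1 by 0.56. Tarsl2 is a threonyl-tRNA synthetase gene besides Tars and Tars2. Gatc, a subunit of the mitochondrial amidotransferase that makes glutaminyl-tRNA, read 9.49 on input, 6.04 on IgG and 7.90 in both IP replicates. It lay between widely separated controls and fell by 1.59 against input (limma adjusted p = 0.00905). Its partner subunits Gatb and Qrsl1 did not pass, at -0.53 and -0.24 from IgG and -0.60 and -0.66 from input, nor did Pstk at -0.35 from IgG. Against input the highest were Tarsl2 (0.46) and Sepsecs (0.15), neither of which passed.

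In the amino acid stress response 23 of 26 listed genes were tested. Against IgG 11 rose (36.1% of all tested genes), among them Slc7a11, the cystine transporter, by 1.78, and Atf4, the transcription factor of the response, by 1.49, and Sesn2 alone fell (by 0.42), with Ddit3 at -0.37. Against input 7 fell (15.9% of all tested genes), among them Chac1, which breaks down glutathione (by 1.60), the serine hydroxymethyltransferase Shmt2 (by 1.45), the asparagine synthetase Asns (by 0.80) and the kinase Eif2ak1 (by 0.60). Vldlr was the gene that rose against input, by 1.19, and Slc7a5, an amino acid transporter, was next at 0.20. The medians of the list were 0.44 against IgG and -0.36 against input, beside 0.47 and -0.49 for the synthetases, and 0.10 and -0.26 after the second normalization.

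**Figure D5:**
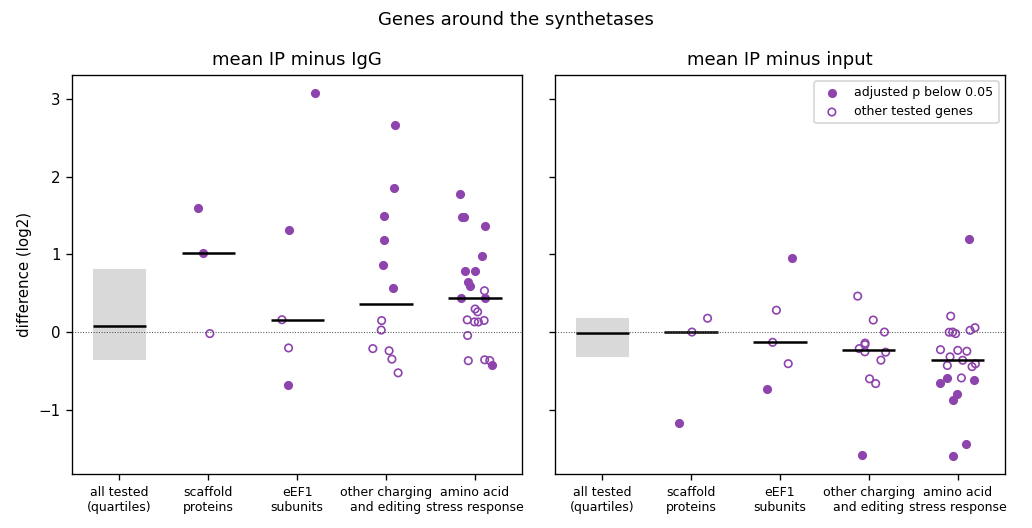
Mean IP minus IgG (left) and mean IP minus input (right), log2, for genes around the synthetases, 1 point per gene; filled points had an adjusted p below 0.05. Lines mark the median of each list and grey boxes the quartiles of all tested genes; Eef1a1 (3.08) and Tarsl2 (2.66) are the highest points on the left, and Chac1 (-1.60) and Gatc (-1.59) the lowest on the right.

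Markers bore on the label of the cells. All 7 measured erythroblast markers of 10 listed were above the input array's median, at a median of 11.35, and 3 of them (Epb42, Gata1 and Klf1) fell against input, Epb42 against IgG as well. Of 30 listed markers of macrophages, fetal hepatocytes, megakaryocytes, neutrophils and B cells, 27 were measured and 24 tested; 20 rose and none fell against input (10.2% and 15.9% of all tested genes), and 16 rose and 1 (C1qa) fell against IgG (36.1% and 21.2%). Summed log2 values of the 8 measured macrophage markers were 36.5 on input, 41.1 on IgG and 48.1 and 49.4 in the IP, and those of the 7 neutrophil markers 43.5, 49.0, 55.4 and 55.5. For the 6 megakaryocyte markers they were 41.4, 46.7, 52.4 and 53.1, for the 5 fetal hepatocyte markers 20.01, 23.4, 27.9 and 28.3, and for the erythroblast markers 77.2, 72.5, 72.6 and 72.8. Cd79a, the B cell marker that was measured, read 3.69 or less on every array. The summed markers of macrophages, neutrophils, megakaryocytes and fetal hepatocytes were higher in both IP replicates than on either control, although C1qa, C1qb, C1qc and S100a9 read highest on IgG. The part of RNA from other cells in the synthetase differences was not tested.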

How the data were processed

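The authors deposited 1 log2 expression value per probe set and array; RMA and affy are named in the submitters' processing notes, and their versions, settings, probe definition and build are not given in the sources used here. Probe sets carry Entrez gene numbers; 23185 had a symbol in the array's annotation, and 2021 without one were not analysed here. All 35 members matched RefSeq (assembly GRCm38.p6, used for names and overlaps only).

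Genes were tested when their mean reached the 40th percentile of named genes (3.84, 13911 genes). Limma 3.58.1 in R 4.3.3 fitted a mean per group with 1 residual degree of freedom, and p-values were adjusted by Benjamini-Hochberg. Tied IP replicates (within 1e-09) occurred in 3032 of these genes and gave plain eBayes a prior SD of 0.00621; the prior was therefore taken from the 10879 untied genes (prior SD 0.110, 3.07 degrees of freedom) and used for all. On simulated data with such ties and a spread per gene, for IP against IgG over 13911 genes, the test found 1 of 50 genes altered 1.5-fold, 6 of 50 altered 2-fold, 48 of 50 altered 4-fold and 49 of 50 altered 8-fold, with 25 false calls among 13711 genes; plain eBayes made 1597 false calls. The simulation gave the controls the spread of the IP replicates. It also altered far fewer genes than the 5028 and 2944 called against IgG in the data. The adjusted p threshold was therefore stricter in it, and its shares found do not carry over to the data. P-values measure the spread between 2 IP samples only, and the small number of arrays limits precision.

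Members, lists, tests and alternatives were chosen with earlier results of these data known. Every member was named; values on all arrays were given for those at least 2-fold from a control in both IP replicates, the 3 highest and 3 lowest against each control and the complex enzymes, and related lists by counts and their 2 highest and 2 lowest. Farsa and, in the related lists, Aimp1, Aimp2, Eef1a1, Eef1b2 and Gatc were given in full after their values were seen. Alternatives were plain eBayes, a common spread per 5% of genes, a trended robust prior, quantile normalization again, the filter left out or set at the 60th percentile, an adjusted p below 0.1, 1.5- and 4-fold limits, and leaving out each array.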

Additional observations from a re-analysis of the deposited data

How the results depend on the processing

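With quantile normalization of the 4 arrays again, rises against IgG went from 19 to 10 and falls from 2 to 10, rises against input from 0 to 1 and falls from 12 to 5, genes at least 2-fold above IgG from 9 to 3, below IgG from 0 to 1 and below input from 2 to 1, and IgG at least 2-fold below input from 18 to 6 and above from 0 to 1. Over all tested genes, those at least 2-fold above IgG went from 2588 to 1781. Those with IgG at least 2-fold below input went from 3329 to 1936. The synthetase medians became 0.12 against IgG and -0.32 against input. The difference from IgG changed sign in Aars (-0.59), Cars (-0.46), Mars1 (-0.26), Mars2 (-0.54), Sars (-0.14), Vars (-0.22) and Pars2 (0.05). Against input, Cars2 turned from -0.04 to 0.10. Among the other settings, leaving out IP replicate 1 turned Farsa from -0.04 to 0.06 against IgG. Falls against IgG were 4 with plain eBayes and 1 with a trended robust prior. Falls against input were 22 with a common spread. Rises against input were 2 with plain eBayes, a common spread or a trended robust prior, and 1 with a 60th percentile filter or an adjusted p below 0.1. At 1.5-fold, 1 gene was below IgG, 11 below input and 1 below both; at 4-fold, 1 was above IgG, 0 below input, and IgG was below input in 2. Leaving out an IP replicate gave 0 to 1 genes at least 2-fold below IgG (1, Sars2, without replicate 2), 2 to 4 below input (4 without replicate 2) and a median against input of -0.50 to -0.44. Counts against both controls became 9 above without the input array and 2 below without the IgG array. Over all genes, falls against IgG were 2944, but 5668 with no filter and 1176 with the 60th percentile filter, and falls against input were 2213, but 1452 with quantile normalization again. No paired analysis was possible because each control is a single array, so the groups share fewer than 2 replicate numbers. With 1 array per control, the control's own spread is unknown.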
